A study of Mus musculus with 2 samples.

Results

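The TNF family genes that support B cells and plasma cells were followed across the cells of the mouse abdominal aorta. They were chosen by gene symbol and number 9 of the 33696 genes counted: the ligand genes Tnfsf13b (BAFF), Tnfsf13 (APRIL), Ltb (lymphotoxin beta) and Cd40lg (CD40 ligand), and the receptor genes Tnfrsf13c (BAFF receptor), Tnfrsf13b (TACI), Tnfrsf17 (BCMA), Ltbr (lymphotoxin beta receptor) and Cd40. Each symbol had 1 row in both count matrices. The donors were male C57BL/6J mice aged 5 months, whose abdominal aortas were taken at day 28, either from mice on normal saline (Control) or from mice infused with angiotensin II by minipump at 1500 ng/kg/min while drinking water with 0.9% NaCl and 0.2% KCl (AngII+HS). Each condition gave 1 library of dissociated cells. The design text gives 5 pooled mice per library, whereas the labels' protocol mentions 1 mouse for Control and 2 for AngII+HS. Every value below is therefore from 1 library per condition, has no replicate check and was not tested between conditions. The 95% intervals are exact Poisson intervals for levels, exact binomial (Clopper-Pearson) intervals for shares and exact conditional intervals for ratios. They cover counting error only, not the spread between mice.

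A level is the number of unique molecular identifiers (UMIs, 1 per captured RNA molecule) of a gene summed over the cells of a class, per 1000000 UMIs of all genes in those cells (CPM). The retained cells were 10269 in the Control library, with 75265697 UMIs and a median of 7265 per cell, and 19734 in the AngII+HS library, with 80416904 UMIs and a median of 3069.5. The 26 clusters were grouped into classes by marker genes, and a class name means cells that resemble that type. No member was a naming marker, and the members and their pathway genes were left out of the genes used for clustering, although some pathway genes, such as Xbp1 and Ccl21a, were naming markers. VSMCs (vascular smooth muscle cells) were 52.5% of all Control and 4.54% of all AngII+HS cells, fibroblasts 25.4% and 24%, macrophages (monocytes included) 4.63% and 22.2%, neutrophils 0.954% and 23.5%, T cells (natural killer and innate lymphoid cells included) 1.30% and 5.65%, and B cells 0.974% and 5.04%. These class sizes depend on the processing, since the 5396 Control VSMCs were 1450 when the number of doublets removed was doubled and 2994 under a stricter cell filter, and the 4646 AngII+HS neutrophils were 242 without integration, with many cells then unnamed. Doublet removal took 9.03% and 19.6% of the cells. In line count, each library's barcode list matches the other library's matrix, and the lists share 67 barcode sequences. Each matrix was assigned to the sample GEO ties it to, and if the matrices had been exchanged every direction below would turn.

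BAFF and APRIL are made by stromal and myeloid cells and bind receptors on the B lineage. The BAFF receptor, which binds BAFF and not APRIL, keeps mature B cells alive, whereas TACI and BCMA bind both ligands, and BCMA supports long-lived plasma cells. Lymphotoxin beta is a membrane protein that pairs with lymphotoxin alpha and signals through the lymphotoxin beta receptor on stromal, endothelial and myeloid cells, where it induces the chemokines and adhesion molecules of lymphoid stroma. CD40 ligand on activated helper T cells engages CD40 on B cells, dendritic cells and macrophages. These receptors feed into NF-kB signalling.

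Summed over all cells of a library, all 9 members were higher in the AngII+HS library, and 7 of them stood at least 2-fold higher. Over all 20360 genes with at least 20 UMIs, 20.3% stood at least 2-fold higher and 11.5% at least 2-fold lower there. Tnfsf13b stood at 4.77 CPM in the Control and 32.8 CPM in the AngII+HS library, from 359 and 2635 UMIs (6.87-fold, 6.15 to 7.69). Ltb stood at 4.61 and 68.3 CPM (14.8-fold, 13.3 to 16.5), Cd40lg at 0.558 and 4.14 CPM (7.42-fold, 5.37 to 10.5) and Cd40 at 4.16 and 27.7 CPM (6.67-fold, 5.92 to 7.53). Among the BAFF and APRIL receptors, Tnfrsf13b stood at 0.983 and 12.2 CPM (12.4-fold, 9.78 to 15.9) and Tnfrsf13c at 1.04 and 4.51 CPM (4.36-fold, 3.40 to 5.64), and Tnfrsf17 had 7 and 101 UMIs (13.5-fold, 6.32 to 34.4). The members under 2-fold were Tnfsf13, at 9.71 and 18.8 CPM (1.94-fold, 1.77 to 2.12), and Ltbr, at 16.9 and 22.5 CPM (1.33-fold, 1.24 to 1.43). In such a sum, more cells of a type and more RNA per cell cannot be told apart, so the levels within each class are given next.

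**Figure D1:**
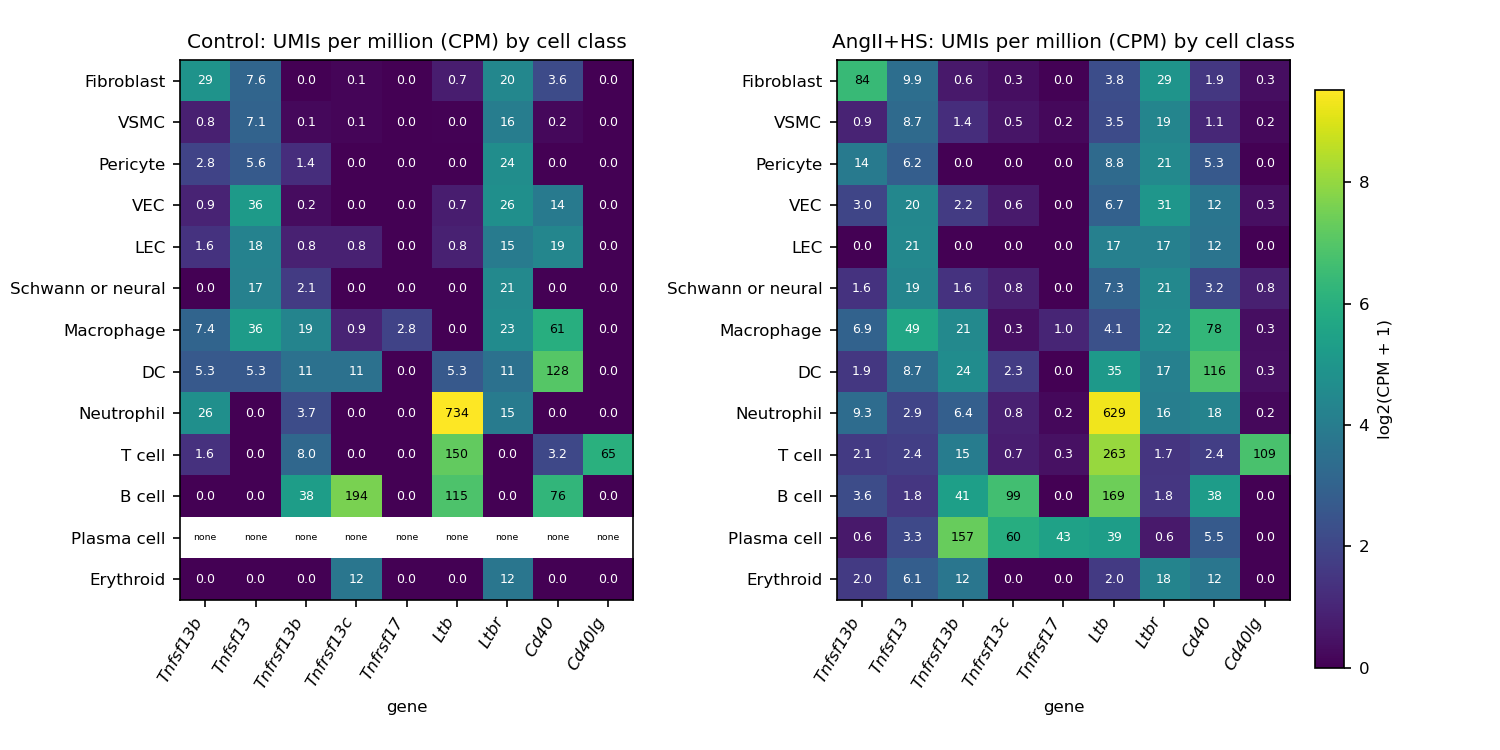
Level of each member (x axis) in each cell class (y axis), in UMIs per 1000000 (CPM, printed in each square; colour, log2(CPM + 1)), in the Control (left) and AngII+HS (right) library. Tnfsf13b peaks in fibroblasts, Ltb in neutrophils and Cd40lg in T cells in both libraries, and no Control cell fell into the plasma cell class.

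Tnfsf13b (ENSMUSG00000031497, chromosome 8, 10056467 to 10089072, plus strand; build GRCm39, as for all coordinates here) encodes BAFF. Fibroblasts held 78.3% of its Control UMIs (281 of 359, interval 73.6 to 82.4%) and 90.2% of its AngII+HS UMIs (2377 of 2635, 89.01 to 91.3%). Their level was 28.6 CPM (25.3 to 32.1) in the Control and 84.1 CPM (80.8 to 87.6) in the AngII+HS library, a log2 ratio of 1.56 (1.38 to 1.74). These intervals do not overlap, and 7.66% of the 15884 genes with at least 20 UMIs in fibroblasts stood at least 2-fold higher there. B cells, the reference class for this gene, had no Tnfsf13b UMI in the Control library, which at 3 counts allows up to 8.81 CPM, and 3.65 CPM in the AngII+HS library. After each cell had been thinned to 1000 UMIs, 2.74% of Control fibroblasts (2.09 to 3.52%) and 8.26% of AngII+HS fibroblasts (7.47 to 9.09%) had a Tnfsf13b UMI, against 9.43% and 29.9% before thinning. Of the B cells, 0 and 0.314% had one after thinning. Thinning left out 456 Control and 157 AngII+HS fibroblasts with fewer UMIs. Median depths were 3192.5 and 5118 UMIs in fibroblasts and 3010 and 1984 UMIs in B cells.

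The higher BAFF level was present in each of the 3 fibroblast clusters with enough cells in both libraries. In the cluster led by Dio2, Rbp4 and Gdf10 it stood at 31.04 and 93.6 CPM (1555 and 1687 cells, log2 ratio 1.59, 1.34 to 1.85). In the cluster led by Comp, Fmod and Sfrp4, genes of the collagen-bound matrix among them, it stood at 31.98 and 96.1 CPM (299 and 2041 cells, log2 ratio 1.59, 1.16 to 2.05), and in the cluster led by Clec3b, Scara5 and C7 at 23.98 and 70.04 CPM (754 and 813 cells, log2 ratio 1.55, 1.19 to 1.92). Each of the 3 ratios lies within the intervals of the others. A further fibroblast cluster, led by Prg4, Timp1 and Mmp13, held 195 AngII+HS cells and 2 Control cells. It had 20.2 CPM (15.4 to 26.1), below the interval of each of the other AngII+HS fibroblast clusters.

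In the AngII+HS library the other classes had lower BAFF levels. Pericytes stood at 2.78 CPM (4 UMIs) and 14.1 CPM (16 UMIs), a log2 ratio of 2.35 with a wide interval (0.72 to 4.39). Macrophages stood at 7.41 and 6.92 CPM (log2 ratio -0.10, -0.85 to 0.75). Among the AngII+HS macrophages, the level was 13.4 CPM (9.50 to 18.4) in the cells led by Gpnmb and Syngr1, which carry lipid-handling genes such as Lpl and Apoe, and 28.6 CPM (18.3 to 42.5) in the 86 cycling cells led by Pclaf and Top2a, the highest of the macrophage subclusters. The latter value rests on 24 UMIs. The cycling subcluster, its few Control cells included, had a median depth of 8883 UMIs, and whether some of its cells are pairs was not tested. Neutrophils had 25.8 CPM in the Control library, from 7 UMIs in 98 cells, and 9.34 CPM in the AngII+HS library, from 58 UMIs in 4646 cells (log2 ratio -1.47, -2.60 to -0.09). That interval nearly reaches 0, the direction rests on the 7 Control UMIs, and the Control level (10.4 to 53.2) overlaps that of fibroblasts.

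Tnfsf13 (ENSMUSG00000089669, chromosome 11, 69573403 to 69576610, minus strand) encodes APRIL, and its main holder differed between the libraries. VSMCs held 52.7% of its Control UMIs (385 of 731, 48.98 to 56.3%) and 3.77% of its AngII+HS UMIs (57 of 1512, 2.87 to 4.86%). The Control share of VSMCs was 31.9% under a stricter cell filter and 13.98% when the number of doublets removed was doubled, with 2151 and 3669 Control cells then in unnamed clusters, and 32.7% when each cell had equal weight. The level of VSMCs had overlapping intervals, at 7.10 CPM (6.41 to 7.85) and 8.68 CPM (6.57 to 11.2). In the Control library it lay below the 9.71 CPM of all cells, and VSMCs held 54208989 of the 75265697 UMIs of all genes there. VSMC clusters differed in direction, with a log2 ratio of 1.205 (0.39 to 1.93) in 1902 Control and 149 AngII+HS cells led by Mylk4 and -1.91 (-4.99 to -0.01, from 2 AngII+HS UMIs) in the cells led by Des and Rgs5. A larger Mylk4-led cluster, of 2273 Control and 420 AngII+HS cells, had 6.74 and 8.81 CPM (log2 ratio 0.39, -0.17 to 0.91). Macrophages held 10.7% (8.53 to 13.1%) in the Control and 61.6% (59.1 to 64.03%) in the AngII+HS library. At a clustering resolution of 1.2 the Control share was 3.28%, with 118 Control cells then named macrophages against 475, and 1133 in unnamed clusters. The level of macrophages was 36.1 CPM (28.6 to 45.1) and 48.8 CPM (45.7 to 52.1), a log2 ratio of 0.43 (0.10 to 0.79), under 2-fold. The libraries filled different macrophage clusters, and within them the log2 ratio was 0.73 (0.35 to 1.13) in the Mrc1-led (428 and 2203 cells) and -0.17 (-0.91 to 0.68) in the Arg1-led cells (42 and 2083). Vascular endothelial cells (VECs) went the other way, at 35.7 CPM (30.3 to 41.8) and 20.1 CPM (16.7 to 23.8), a log2 ratio of -0.83 (-1.18 to -0.49). Both VEC clusters had the lower level, with 29.4 and 17.6 CPM in the cells led by Fabp4 and Flt1 (log2 ratio -0.74, -1.28 to -0.19) and 39.8 and 24.4 CPM in the cells led by Cytl1 and Gja5, an arterial gene (log2 ratio -0.71, -1.20 to -0.23). Fibroblasts stood at 7.63 and 9.95 CPM (log2 ratio 0.38, 0.01 to 0.77). T cells, the reference class, had 0 UMIs among Control cells and 2.44 CPM in the AngII+HS library.

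Among the AngII+HS macrophages, APRIL stood at 73.5 CPM (63.8 to 84.2) in the 465 cells led by Gpnmb and Syngr1 and at 64.5 CPM (49.7 to 82.2) in the 313 cells led by Cd209f and Lyve1, genes of resident macrophages. In the 148 Control cells of the latter subcluster it stood at 63.5 CPM (43.99 to 88.8), which overlaps the AngII+HS value. The cells led by Ccl3 had 20.7 CPM (12.99 to 31.4) in the Control and 40.6 CPM (33.3 to 48.9) in the AngII+HS library. Lower levels were those of the AngII+HS cells led by Cxcl3 and Inhba (34.3 CPM (28.8 to 40.4)) and of the monocytes (36.9 CPM (29.7 to 45.3)), with overlapping intervals. In the annotation Tnfsf13 overlaps Tnfsf13os, an antisense gene counted on its own, and the readthrough gene Tnfsfm13, which has no row in the matrices. How reads of the shared parts were assigned was not tested.

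Ltb (ENSMUSG00000024399, chromosome 17, 35413382 to 35415296, plus strand) was highest in neutrophils in both libraries, at 734 CPM (636 to 843) in 98 Control cells and 629 CPM (609 to 649) in 4646 AngII+HS cells. These cells held 57.3% (51.96 to 62.6%) and 71.1% (69.9 to 72.3%) of all Ltb UMIs. Without integration of the libraries most AngII+HS neutrophils fell into an unnamed cluster, and those still named held 2.73% of the AngII+HS UMIs. The level was slightly lower in the AngII+HS neutrophils (log2 ratio -0.22, -0.43 to -0.01). A neutrophil cluster led by the interferon response genes Slfn4 and Rsad2, which held 258 AngII+HS cells and no Control cell, had 407 CPM (346 to 475), below the 644 CPM (623 to 664) of the other AngII+HS neutrophils. The 6 T cell markers summed to 3.69 and 10.5 CPM in neutrophils, against 1908 and 2293 CPM in T cells. The 7 B cell markers summed to 22.1 and 39.5 CPM in neutrophils, with Cd79a, Cd79b, Ms4a1, Pax5 and Fcmr at 0 in the Control library, against 5874 and 6668 CPM in B cells. After thinning, 46.4% of Control and 35.6% of AngII+HS neutrophils had an Ltb UMI (unthinned 68.4% and 40.9%, with medians of 2740.5 and 1268 UMIs per cell), against 0 and 0.355% of VSMCs, the reference class (9721.5 and 6987.5 UMIs).

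Lymphocytes came next. T cells had 149.7 CPM (121 to 183) in the Control and 263 CPM (244 to 282) in the AngII+HS library, a log2 ratio of 0.81 (0.50 to 1.14), and B cells 115 CPM (81.4 to 157) and 169 CPM (152 to 187), a log2 ratio of 0.56 (0.08 to 1.07). Both are under 2-fold, whereas the subclusters named CD8 T had 127 and 272 CPM (70 and 520 cells, log2 ratio 1.10, 0.65 to 1.57). The libraries filled these subclusters differently, with 23 Control and 413 AngII+HS cells in the Ifng-led and 47 and 107 in the Gm41331-led one. T cells with a Cd8a or Cd8b1 and no Cd4 UMI had 143 CPM (99.1 to 200) in 39 Control cells. In 206 such AngII+HS cells it was 213 CPM (177 to 253), with overlapping intervals. This split by UMIs was chosen after the values had been seen. Within the AngII+HS T cell class, Ltb was highest in gamma-delta T cells (484 CPM (414 to 561), 146 cells). It stood at 297 CPM (244 to 357) in the CD4 T cells led by Itgb8 and Foxp3, the factor of regulatory T cells, and at 131 CPM (93.02 to 180.4) in natural killer cells. Gamma-delta T cells had 286 CPM (183 to 425) in the Control library (21 cells). DCs (dendritic cells) had 34.8 CPM (28.6 to 42.1) in the AngII+HS library, and the mature DCs 66.6 CPM (41.2 to 102). Fibroblasts, VSMCs, pericytes, VECs, Schwann and neural cells and macrophages had between 0 and 0.712 CPM in the Control library and between 3.50 and 8.83 CPM in the AngII+HS library. Lymphatic endothelial cells stood above that range, at 0.810 CPM (1 UMI) and 16.8 CPM (13 UMIs). Neutrophil markers moved with these low values, from a sum of 6.22 to 186 CPM in VSMCs for all 7 of them. The part of free RNA in the low levels was not tested, and no change of those cells is read from them.

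Cd40lg (ENSMUSG00000031132, chromosome X, 56257405 to 56269902, plus strand) was a T cell gene, with 97.6% (87.4 to 99.9%) of 42 Control UMIs and 94.3% (91.2 to 96.5%) of 333 AngII+HS UMIs in that class. T cells had 65.3 CPM (46.8 to 88.6) in the Control and 109 CPM (97.5 to 122) in the AngII+HS library, a log2 ratio of 0.74 (0.27 to 1.25), under 2-fold. VSMCs, the reference class, had 0.0184 and 0.152 CPM, and B cells had no Cd40lg UMI in either library. T cells with a Cd4 and no Cd8a or Cd8b1 UMI had 186 CPM (99.2 to 318) in 15 Control cells and 172 CPM (139 to 211) in 174 AngII+HS cells, with overlapping intervals. Those with a Cd8a or Cd8b1 and no Cd4 UMI had none in 39 Control cells and 17.1 CPM (8.22 to 31.5) in 206 AngII+HS cells. Cells with neither kind of UMI held most of the Cd40lg UMIs, 28 of 41 and 212 of 314, at 94.9 CPM (63.04 to 137) in 71 and 122 CPM (106 to 139) in 731 cells. This split was chosen after the values had been seen. The subclusters named CD8 T, which hold more cells than had a Cd8a or Cd8b1 UMI, had 77.4 CPM (51.4 to 112) in 70 Control and 173 CPM (151 to 197) in 520 AngII+HS cells (log2 ratio 1.16, 0.59 to 1.78). Of these cells, 18.6% and 15.4% had a Cd4 UMI, 28.6% and 21.7% a Cd8a UMI and 42.9% and 24.4% a Cd8b1 UMI. At a higher subclustering resolution, an unnamed subcluster of 6 Control and 213 AngII+HS cells had Ifng, Cd40lg and Cd4 among its leading genes. By the UMI split, the CPM interval of the Cd4 cells lay above that of the Cd8 cells in both libraries. The 13 Control UMIs of the Cd4 cells lay in only 4 of the 15 cells. As shares of cells with a Cd40lg UMI, the Control intervals overlap (26.7%, 7.79 to 55.1%, against 0 to 9.03%). Those of the AngII+HS library do not (27.6%, 21.1 to 34.9%, against 2.43%, 0.793 to 5.57%). By the named subclusters the order in the AngII+HS library was the other way. The 133 CD4 T cells led by Itgb8 and Foxp3 had 66.2 CPM, from 25 UMIs. Most Cd40lg UMIs lay in cells with neither kind, which are not assigned to CD4 or CD8 T cells here. Gamma-delta T cells had 119 CPM (57.1 to 219) and 133 CPM (98.3 to 177).

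**Figure D2:**
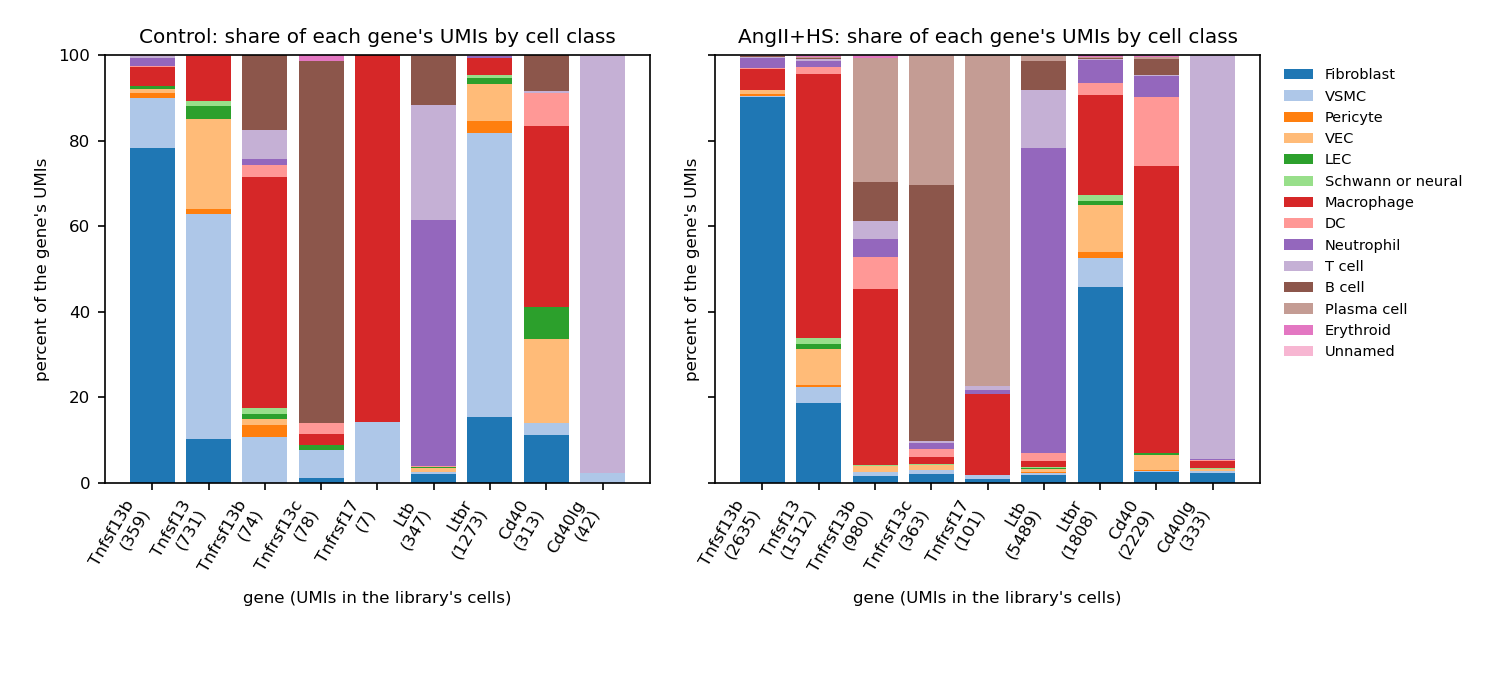
Share of each member's UMIs held by each cell class (stacked bars, percent, y axis) in the Control (left) and AngII+HS (right) library, with the number of UMIs under each gene (x axis). Fibroblasts hold most Tnfsf13b UMIs in both libraries, and the leading holder of Tnfsf13 is the VSMC class in the Control (52.7%) and the macrophage class in the AngII+HS library (61.6%). A share follows the size and depth of a class as well as its level, and VSMCs hold 54208989 of the 75265697 Control UMIs of all genes.

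**Figure D3:**
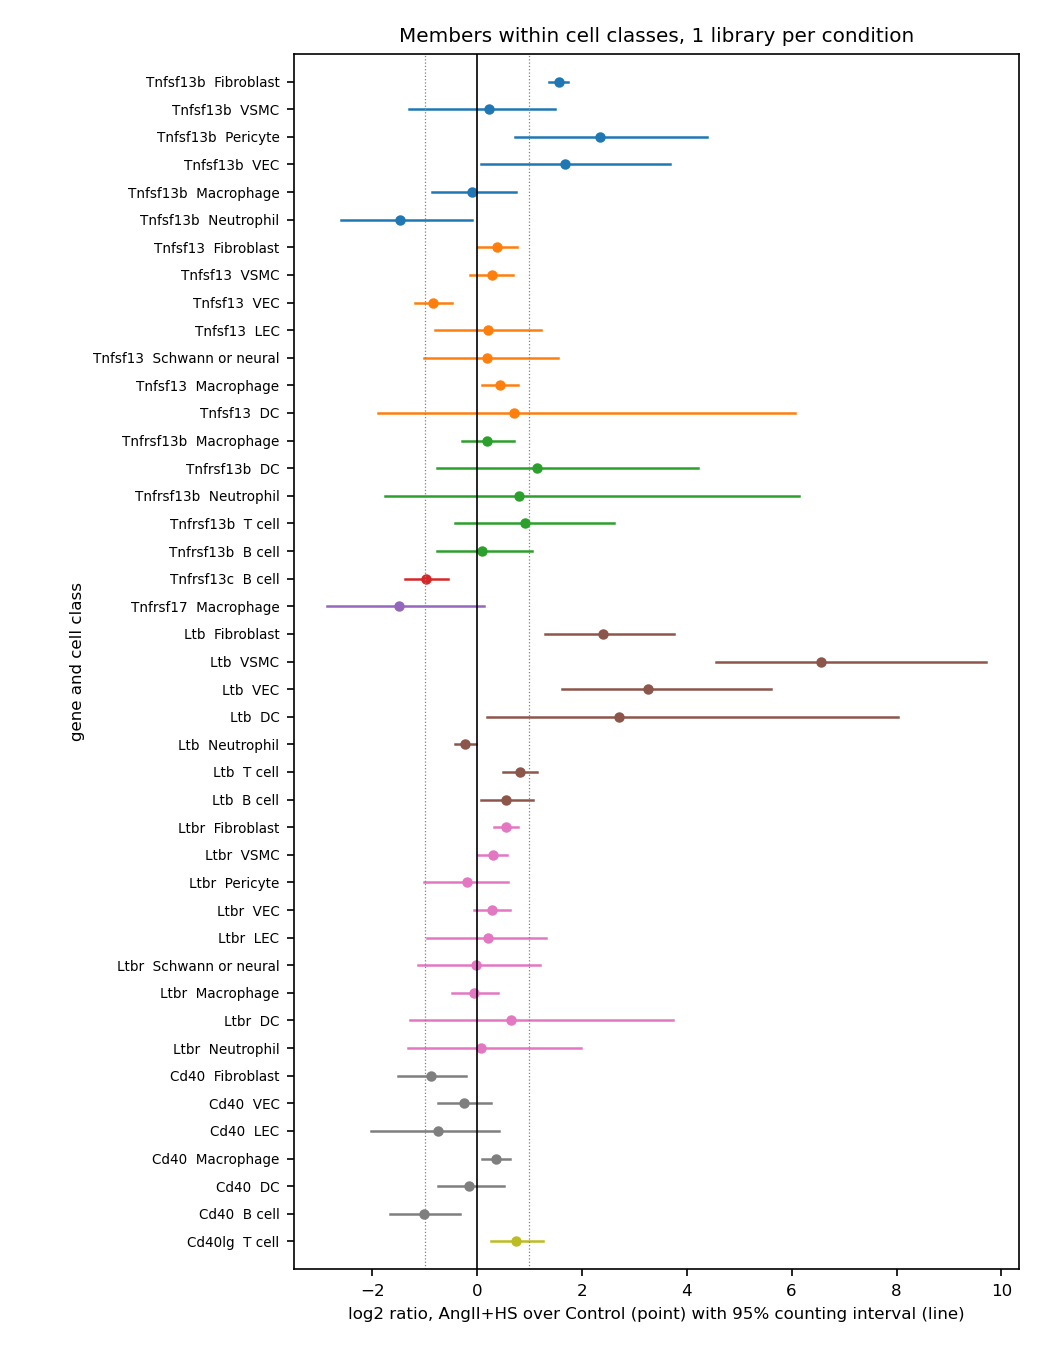
Log2 ratio (AngII+HS over Control, x axis) of each member in each class with at least 50 cells in both libraries and at least 20 UMIs (y axis), with 95% counting intervals as lines and dotted lines at 2-fold. Tnfsf13b in fibroblasts stands at 1.56, and Tnfrsf13c and Cd40 in B cells stand at -0.97 and -1.01. After thinning, the shares of B cells with a UMI of either gene had overlapping intervals between the libraries.

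Of the receptors, Tnfrsf13c (ENSMUSG00000068105, chromosome 15, 82105944 to 82108580, minus strand), the BAFF receptor gene, lay mainly in the B lineage. B cells held 84.6% (74.7 to 91.8%) of its UMIs in the Control and 59.8% (54.5 to 64.9%) in the AngII+HS library, where the plasma cell class held a further 30.03%. Of the 109 UMIs of that class, only 30 lay in its 133 non-cycling cells. The rest lay in its cycling cells, which also carried B cell genes and are described below. Its level in B cells was 194 CPM (149.9 to 247) in 100 Control cells and 98.95 CPM (86.2 to 113) in 995 AngII+HS cells, a log2 ratio of -0.97 (-1.37 to -0.55). Of the 8781 genes with at least 20 UMIs in B cells, 4.86% stood at least 2-fold lower in the AngII+HS library, a fold that Tnfrsf13c just missed. Thinned to 1000 UMIs, 14.3% (8.04 to 22.8%) and 9.94% (8.11 to 12.01%) of B cells had a Tnfrsf13c UMI, and these intervals overlap. Unthinned shares were 36% and 17.6%, and no thinned VSMC had one in either library (5376 and 845 cells).

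At the subclustering resolution used, the B cells of the libraries lay mostly in different subclusters. One, led by Egr3 and with the activation genes Cd83, Cd86 and Myc among its leading genes, held 94 Control and 347 AngII+HS B cells. The other, led by Ighd, the IgD gene of naive B cells, held 6 Control and 647 AngII+HS B cells, and with 1 library per condition it cannot be told apart from the library. Over both subclusters, 57% of Control and 58.5% of AngII+HS cells had an Ighd UMI before thinning, at 358 and 505 CPM. Cd86 stood at 825 and 835 CPM. Within the Egr3-led subcluster, Tnfrsf13c stood at 201 and 130.2 CPM (log2 ratio -0.63, -1.07 to -0.18), a smaller difference than in all B cells whose interval still left out 0. The Ighd-led AngII+HS cells had 73.2 CPM (58.6 to 90.3). At a lower subclustering resolution, an Ighd-led subcluster held 50 Control and 935 AngII+HS B cells. One led by Mreg and Egr3 then held 50 and 59. The split, and the ratios within the Egr3-led subcluster here and below, therefore rest on the resolution chosen.

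Tnfrsf13b (ENSMUSG00000010142, chromosome 11, 61017574 to 61040434, plus strand), the TACI gene, was found in more cell classes than the other BAFF and APRIL receptors. The study used it to mark plasma cells, but it took no part in naming cells here. The plasma cell class held 170 AngII+HS cells and none of the 10269 Control cells, which allows a Control share of up to 0.0292%. A cluster so named held 5 Control cells at a clustering resolution of 0.4, all 5 of them macrophages here, and 4 without doublet removal, all 4 of them removed as doublets here, and no cluster was named plasma cell when the number of doublets removed was doubled. The AngII+HS cells so named were 259 at the resolution of 0.4, of which 89 were macrophages here. Without doublet removal they were 249, of which 78 were removed as doublets here. In the class of 170 cells the Tnfrsf13b level was 157 CPM (139 to 176). B cells had 38.2 CPM (20.3 to 65.3) and 40.6 CPM (32.6 to 49.9), and the interval of the ratio allows changes in both directions (log2 ratio 0.09, -0.76 to 1.05). Macrophages had 18.5 CPM (13.2 to 25.2) and 21.2 CPM (19.2 to 23.4) (log2 ratio 0.19, -0.28 to 0.70), and by their number they held 54.1% and 41.2% of all Tnfrsf13b UMIs. VSMCs, the reference class, had 0.148 and 1.37 CPM. The 7 B cell markers summed to 42.2 and 27.9 CPM in macrophages. After thinning, 2.06% (0.948 to 3.88%) and 2.28% (1.85 to 2.78%) of macrophages and 0.0186% and 0.118% of VSMCs had a Tnfrsf13b UMI, against 7.58% and 8.22% of macrophages before, at median depths of 4282 and 4030 UMIs. DCs had 10.7 CPM (2 UMIs) and 23.6 CPM (73 UMIs). Among AngII+HS T cells, the Foxp3-bearing CD4 subcluster had 71.5 CPM (47.2 to 104) in 133 cells, against 14.96 CPM (10.8 to 20.1) in the whole T cell class.

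Tnfrsf17 (ENSMUSG00000022496, chromosome 16, 11118528 to 11137938, plus strand), the BCMA gene, had the fewest UMIs of the members. The plasma cell class held 78 of its 101 UMIs in the AngII+HS library (77.2%, 67.8 to 84.98%), at 43.2 CPM (34.1 to 53.9). B cells had none in either library, which at 3 counts allows up to 8.81 CPM in the Control and 1.37 CPM in the AngII+HS library. Macrophages had 6 UMIs in the Control (2.78 CPM) and 19 in the AngII+HS library (0.996 CPM), and 10 of the latter lay in the 313 cells led by Cd209f and Lyve1 (9.92 CPM (4.76 to 18.2)). After thinning, 7.32% of the plasma cell class (3.84 to 12.4%) and 0.118% of AngII+HS VSMCs had a Tnfrsf17 UMI, at median depths of 10323.5 and 6987.5 UMIs. Before thinning, 24.7% of the class had one.

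The plasma cell class had 2 parts when lymphocytes were clustered again. Of its cells, 133 were non-cycling, with the antibody joining chain gene Jchain at 23051 CPM and Mki67, a gene of dividing cells, at 28.7 CPM. The other 37 were cycling, with Mki67 at 426 CPM and Jchain at 3180.3 CPM. They carried the B cell genes Pax5 (308 CPM) and Ms4a1 (382 CPM) and the germinal centre genes Bcl6 (87.2 CPM) and Rgs13 (362 CPM). Tnfrsf13b stood at 156 CPM (136 to 179.6) in the non-cycling and 157 CPM (125 to 195) in the cycling cells, with overlapping intervals. Tnfrsf13c stood at 23.2 CPM (15.7 to 33.2) in the non-cycling against 153 CPM (121 to 191) in the cycling cells, and Ltb at 12.4 CPM (7.08 to 20.1) against 105 CPM (78.6 to 136). Tnfrsf17 stood at 48.8 CPM (37.5 to 62.4) against 29.1 CPM (16.3 to 47.9), with overlapping intervals. Cd40 was at 5.42 and 5.81 CPM in these parts, against 37.8 CPM in AngII+HS B cells. The cycling cells had a median of 12060 UMIs, the non-cycling cells 9991 and the AngII+HS B cells 1984. The T cell genes Cd3d and Cd3e were at 0 in the whole class, and whether some cycling cells are pairs of cells was not tested.

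**Figure D4:**
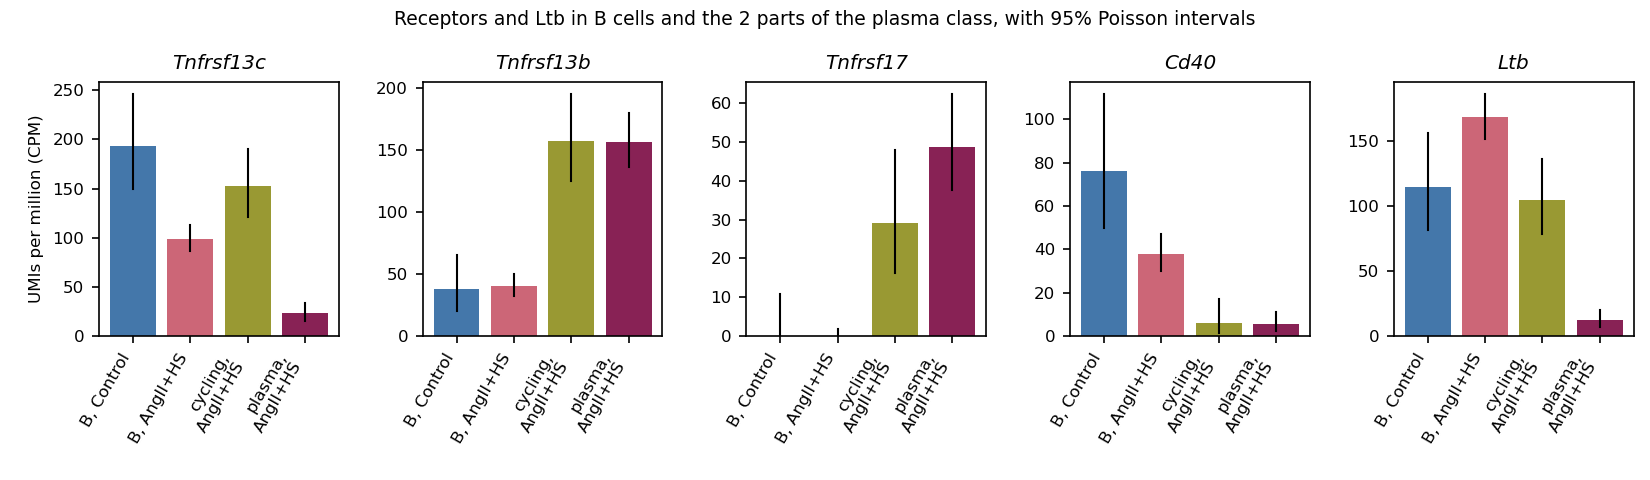
Level (CPM, y axis) of Tnfrsf13c, Tnfrsf13b, Tnfrsf17, Cd40 and Ltb in Control B cells, AngII+HS B cells and the cycling (37 cells) and non-cycling (133 cells) parts of the plasma cell class (x axis), with 95% Poisson intervals as lines. Tnfrsf17 stands above 0 in the plasma cell class alone among these groups, and the non-cycling plasma cells have the lowest Tnfrsf13c and Ltb levels of the 4 groups.

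Counted per cell without thinning, 134 of the 170 cells of the plasma cell class (78.8%, 71.9 to 84.7%) had a UMI of at least 1 of the 3 BAFF and APRIL receptors, 62 had 2 or more and 9 had all 3. Tnfrsf13b and Tnfrsf17 were found together in 35 cells, Tnfrsf13b and Tnfrsf13c in 34. The cycling and non-cycling parts of the class were not counted apart here. Of the B cells, 40 of 100 in the Control (30.3 to 50.3%) and 221 of 995 in the AngII+HS library (22.2%, 19.7 to 24.9%) had a UMI of at least 1 receptor. Most of these had Tnfrsf13c alone (32 and 156 cells), fewer Tnfrsf13b alone (4 and 46 cells), and 4 and 19 cells had both. Such shares rise with depth, and the AngII+HS B cells were the shallowest of these groups.

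Cd40 (ENSMUSG00000017652, chromosome 2, 164897544 to 164914868, plus strand) was highest in DCs, at 128 CPM (82.1 to 191) in 56 Control cells and 116 CPM (104 to 128) in 597 AngII+HS cells. Of the Control DCs, 21 fell into a subcluster with smooth muscle and mitochondrial genes among its leading genes when myeloid cells were clustered again. In cDC2 alone, the conventional DCs that present antigen mainly to CD4 T cells, the level was 116 CPM (66.04 to 188) in 32 Control cells and 91.5 CPM (79.9 to 104) in 478 AngII+HS cells. The 63 mature DCs of the AngII+HS library, marked by Fscn1, Ccl22 and Ccr7, stood at 380.3 CPM (315 to 455), and cDC1 at 41.1 CPM (24.4 to 65.01). The AngII+HS intervals of these 3 DC types do not overlap.

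Macrophages held more Cd40 UMIs than any other class in both libraries, with 42.2% and 66.98%, although at a clustering resolution of 1.2 the Control cells still named macrophages held 14.4%. They had 61.2 CPM (51.2 to 72.5) in the Control and 78.3 CPM (74.4 to 82.4) in the AngII+HS library, a log2 ratio of 0.36 (0.10 to 0.62), under 2-fold. In the cluster led by Mrc1 and C1qc alone the values were 62.8 and 102 CPM (log2 ratio 0.71, 0.42 to 1.001). In the cluster led by Arg1 and Ccl24 (42 and 2083 cells) they were 56.4 and 49.1 CPM (log2 ratio -0.20, -0.86 to 0.55). AngII+HS macrophages differed among themselves. The cells led by the chemokine gene Ccl3 (123 CPM (109.9 to 137)) and by Ly6c2 and St18 (109.7 CPM (98.2 to 122)) were high, those led by Cxcl3, Inhba and Arg1 lower (47.3 CPM (40.8 to 54.4)), and those led by Ppbp, Pf4 and Arg1 lowest (26.6 CPM (19.9 to 34.8)). Neutrophils had no Cd40 UMI among Control cells and 18.04 CPM (14.9 to 21.7) in the AngII+HS library. That level is 1.63-fold the floor of 3 counts in the Control class, a value that leaves out the counting error of the AngII+HS UMIs.

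In B cells, Cd40 stood at 76.4 CPM (49.9 to 112) and 37.8 CPM (30.1 to 46.9), a log2 ratio of -1.01 (-1.66 to -0.32), and within the Egr3-led subcluster at 77.4 and 37.1 CPM (log2 ratio -1.06, -1.83 to -0.27). After thinning, 4.08% (1.12 to 10.1%) of Control and 4.08% (2.92 to 5.53%) of AngII+HS B cells had a Cd40 UMI, against 19% and 7.94% before. The thinned shares do not differ as the CPM does, so no order is read from them. T cells, the reference class, had 3.18 and 2.44 CPM. Cd40 stood at 14.2 and 11.97 CPM in all VECs (log2 ratio -0.24, -0.74 to 0.27), but the VEC clusters went in opposite directions. The cells led by Fabp4 and Flt1 had 7.66 CPM (13 UMIs) and 15.6 CPM (64 UMIs, log2 ratio 1.03, 0.16 to 2.02), and the cells led by Cytl1 and Gja5 18.4 CPM (48 UMIs) and 5.56 CPM (13 UMIs, log2 ratio -1.72, -2.73 to -0.82).

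**Figure D5:**
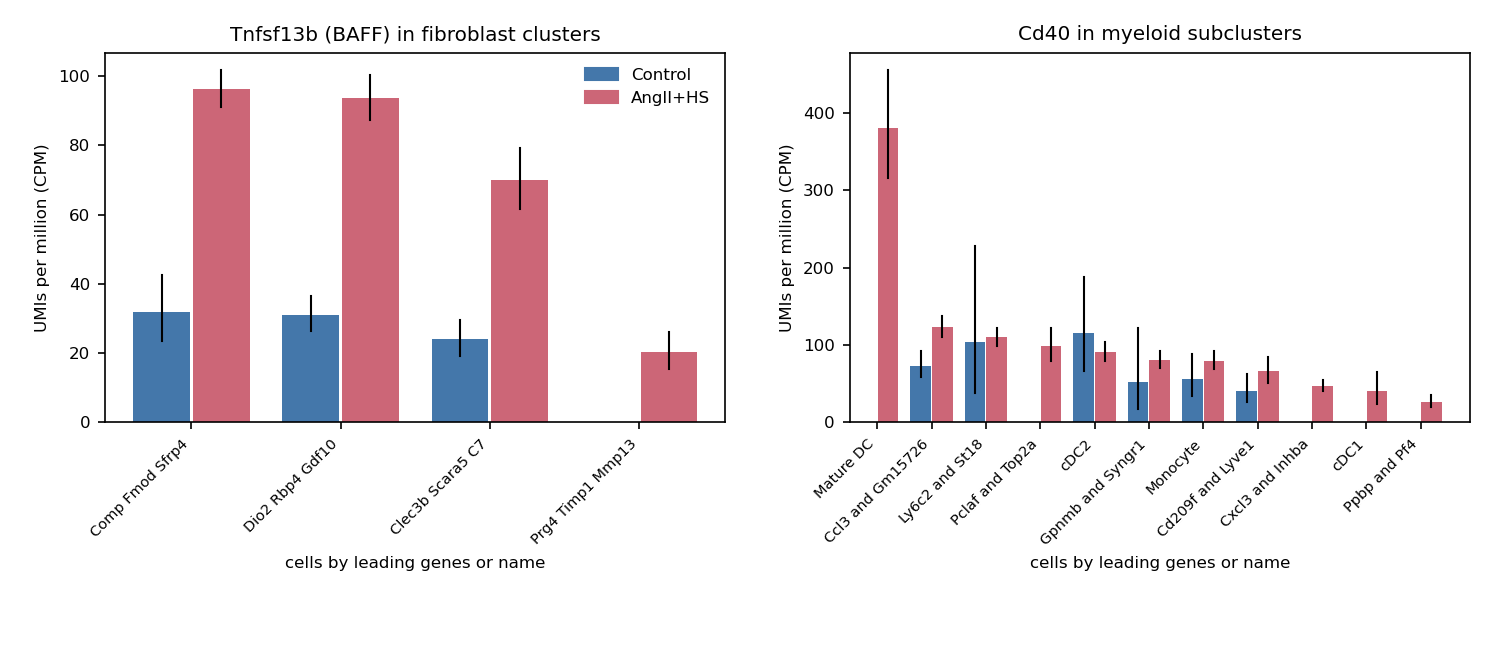
Level (CPM, y axis) of Tnfsf13b in the fibroblast clusters (left) and of Cd40 in the myeloid subclusters (right) of the Control (blue) and AngII+HS (red) library, with 95% Poisson intervals as lines and bars only for groups of at least 10 cells. Tnfsf13b is higher in AngII+HS in 3 fibroblast clusters and stands at 20.2 CPM in the Prg4-led cells, and mature DCs have the highest Cd40 level (380.3 CPM).

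Ltbr (ENSMUSG00000030339, chromosome 6, 125283534 to 125290886, minus strand) was spread over stromal, endothelial, neural and myeloid cells. Its level lay between 10.7 and 25.5 CPM in the Control and between 15.6 and 31.1 CPM in the AngII+HS library in fibroblasts, VSMCs, pericytes, VECs, LECs (lymphatic endothelial cells), Schwann and neural cells, macrophages, DCs and neutrophils. In the order of these levels, neighbours had overlapping intervals, except that VSMCs lay below fibroblasts in the Control and macrophages below fibroblasts in the AngII+HS library. T and B cells had no UMI among Control cells and 1.74 and 1.82 CPM in the AngII+HS library, and the plasma cell class had 0.553 CPM. Fibroblasts stood at 20.03 CPM (17.3 to 23.03) and 29.3 CPM (27.3 to 31.3), a log2 ratio of 0.55 (0.32 to 0.78). Each of the 3 fibroblast clusters had the higher level, with a log2 ratio of 0.44 (0.09 to 0.79) in the Dio2-led, 1.17 (0.49 to 1.94) in the Comp-led and 0.49 (0.07 to 0.92) in the Clec3b-led cells. The levels were 15.6 and 19.2 CPM in VSMCs (log2 ratio 0.30, 0.02 to 0.57), 25.5 and 31.1 CPM in VECs (log2 ratio 0.29, -0.06 to 0.63) and 23.2 and 22.2 CPM in macrophages (log2 ratio -0.06, -0.48 to 0.39). VSMCs held 66.3% of Ltbr UMIs in the Control library, and fibroblasts 45.7% in the AngII+HS library. The Control VSMC level of 15.6 CPM lay below the 16.9 CPM of all Control cells.

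The pathway around the members was read from a list of 57 genes that leaves the members out. In fibroblasts, 53 of them had at least 20 UMIs, 12 stood at least 2-fold higher and 2 lower, with a median log2 ratio of -0.08 against -0.15 over all genes there, where 7.66% and 8.3% did. The higher ones included Vcam1, an adhesion molecule for lymphocytes, at 385 and 1011 CPM (log2 ratio 1.39), and Sdc1, a surface proteoglycan that binds APRIL, at 40.7 and 126 CPM (1.63). They also included Tnf (1.93 and 25.9 CPM) and Bcl2a1b (0.610 and 21.1 CPM), which neutrophils carried at 2367 and 1445 CPM in the AngII+HS library. Further leukocyte genes among them were Il10, Cd86, Cd28 and Icos, and the 7 macrophage markers summed to 20.5 and 79.3 CPM in fibroblasts. The part of free RNA in the fibroblast levels of these leukocyte genes was not tested. The remaining higher ones were Traf1, Ccl21a, Prdm1 and Mki67. Ccl21a is a naming marker of LECs, and the part of free RNA in its fibroblast level was not tested either. The lower ones were Il6ra (62.9 and 29.6 CPM) and Icosl (16.9 and 8.11 CPM). Among genes of B cell zones and plasma cell niches, Cxcl13, which attracts B cells, stood at 193 and 101 CPM in fibroblasts (log2 ratio -0.93), Ccl19 at 131 and 190.3 CPM (0.53), Cxcl12, which retains plasma cells, at 431 and 789 CPM (0.87), and the plasma cell survival cytokine gene Il6 at 1109 and 1023 CPM (-0.12). The genes of the noncanonical NF-kB pathway downstream of these receptors stood at 42.5 and 38.4 CPM for Nfkb2, 114 and 86.4 CPM for Relb and 21.3 and 20.2 CPM for Map3k14.

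In VECs, 10 of 44 list genes stood at least 2-fold higher and 3 lower (median 0.06, all genes 0.04), where 8.17% and 5.71% of all genes did. Cxcl12 (204 and 437 CPM, log2 ratio 1.10, 0.99 to 1.21) and Il6 (58 and 145 CPM, log2 ratio 1.32, 1.12 to 1.53) were among the higher and Icosl, a costimulatory ligand for T cells (26.9 and 7.46 CPM, log2 ratio -1.85, -2.37 to -1.35), among the lower. The higher ones also held the leukocyte genes Tnf, Il10, Cd86 and Bcl2a1b, and the 7 macrophage markers summed to 23.4 and 86.8 CPM in VECs. The Fabp4-led cluster held 341 and 819 and the Cytl1-led cluster 496 and 412 of the VECs. The part of either in these counts was not tested. In VSMCs, 14 of 48 list genes stood at least 2-fold higher and 2 lower (median 0.24, all genes -0.03), where 6.61% and 9.33% of all genes did. The higher ones held Cxcl13, Ccl21a, Vcam1 and Il7 and leukocyte genes such as Tnf and Cd86. The 7 neutrophil markers summed to 6.22 and 186 CPM in VSMCs, and the part of free RNA was not tested. In pericytes 8 and 1 of 35 list genes passed 2-fold (all genes 8.8% and 5.52%), and Ccl19 stood at 77.02 and 247 CPM (log2 ratio 1.68, 1.36 to 2.01) and Sdc1 at 83.96 and 221 CPM (log2 ratio 1.39, 1.08 to 1.72). In LECs 3 and 1 of 34 did (all genes 7.6% and 3.93%). They carried Ccl21a, the chemokine that guides DCs and T cells, at 3036 and 7800.1 CPM (log2 ratio 1.36, 1.30 to 1.42), while their Vcam1 stood at 299 and 123 CPM (log2 ratio -1.28, -1.62 to -0.95). Il7, a survival cytokine of lymphocytes, stood at 72.9 and 62.1 CPM in LECs and at 1.73 and 1.31 CPM in fibroblasts.

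On the receiving side, B cells had 41 genes of the list with at least 20 UMIs, of which 4 stood at least 2-fold higher and 2 lower (median -0.19, all genes -0.02), where 9.92% and 4.86% of all genes did. The higher ones were Xbp1 and the stromal genes Cxcl12, Vcam1 and Il6, and the 7 neutrophil markers summed to 41.1 and 263 CPM in B cells. The part of free RNA in the stromal genes was not tested. Irf4, a factor of B cell activation and plasma cell fate, stood at 473 and 201 CPM (log2 ratio -1.24, -1.50 to -0.97), and at 495 and 325 CPM within the Egr3-led subcluster. Xbp1, the factor of antibody secretion, stood at 26.4 and 58.4 CPM (log2 ratio 1.14, 0.17 to 2.30). Cxcr5, the receptor of CXCL13, stood at 279 and 253 CPM (log2 ratio -0.14, -0.46 to 0.19), the survival gene Bcl2 at 115 and 109 CPM (log2 ratio -0.08, -0.57 to 0.45), and Traf1, a signalling adaptor, at 276 and 140.4 CPM (log2 ratio -0.97, -1.31 to -0.63). In the plasma cell class, Xbp1 stood at 987 CPM, Prdm1 at 121 CPM, Sdc1 at 66.9 CPM, Cd28 at 81.3 CPM and the survival gene Mcl1 at 316 CPM.

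Among the partners of the lymphotoxins, Lta, whose product forms the membrane complex with lymphotoxin beta, stood at 6.37 and 6.61 CPM in T cells, from 4 and 19 UMIs. Tnf stood at 619.7 and 2367 CPM in neutrophils (log2 ratio 1.93, 1.71 to 2.16) and at 1356 and 1083 CPM in macrophages (log2 ratio -0.33, -0.38 to -0.27). Tnfsf14 (LIGHT), another ligand of the lymphotoxin beta receptor, stood at 38.5 CPM in AngII+HS neutrophils and 19.6 CPM in AngII+HS macrophages. In macrophages, 9 of 51 list genes stood at least 2-fold higher and 6 lower, where 10.3% and 17.6% of all genes did. Il10, an immune-regulatory cytokine gene, stood at 209.9 and 446 CPM there (log2 ratio 1.09, 0.95 to 1.23), Sdc1 at 2.78 and 46.98 CPM and the costimulatory gene Cd86 at 1221 and 451 CPM (log2 ratio -1.44, -1.50 to -1.37). In neutrophils 17 and 3 of 46 list genes passed 2-fold, where 27.6% and 12.3% of all genes did, and in T cells 10 and 0 of 47, where 9.26% and 3.98% did. The higher genes included the stromal genes Cxcl13, Ccl19, Ccl21a, Cxcl12 and Vcam1 in neutrophils and Cxcl12, Vcam1 and the myeloid gene Cd86 in T cells, where the 7 neutrophil markers summed to 4.78 and 273 CPM, and the part of free RNA in these counts was not tested. In DCs they were 5 and 10 of 45, where 15.4% and 16.7% did, with Ccr7, the homing receptor for CCL19 and CCL21, at 235 and 635 CPM (log2 ratio 1.44, 1.005 to 1.90). The 63 mature DCs, of which Ccr7 is a marker, were all from the AngII+HS library, and 21 of the 56 Control DCs fell into the subcluster with smooth muscle genes.

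Genes with the most similar pattern were sought over the 23 sums of a class and library with at least 50 cells, by Pearson's r of log2(CPM + 5) among 11772 genes, as a description. Sums of 1 library share its depth and free RNA, and the points are not independent. Tnfsf13b was most like Sntg1 (r = 0.83), Has1 (0.82) and Col6a5 (0.80), each highest in fibroblasts. Tnfsf13 was most like Aph1a (r = 0.89), Snx24 (0.87) and Mcfd2 (0.87). Ltb was most like Mpzl3 (r = 0.94), Mirt1 (0.91) and Hsh2d (0.91), each highest in neutrophils, and Cd40lg like Klrc1 (r = 0.998), Eomes (0.996) and Cd96 (0.996), each highest in T cells. The T cell class includes natural killer cells, of which Eomes was a naming marker. Cd40lg stood at only 6.92 CPM in AngII+HS natural killer cells (2 UMIs in 125 cells). The class sums therefore do not place these genes in the same cells. Tnfrsf13b was most like Ighm (r = 0.92), Ero1b (0.91) and E330020D12Rik (0.90), and Tnfrsf13c like Gm56536 (r = 0.97), Fcrla (0.97) and Gm51802 (0.97). Ltbr was most like Itpripl2 (r = 0.94), App (0.93) and Slc39a1 (0.91). Cd40 was most like H2-DMb1 (r = 0.92), Amz1 (0.92) and H2-Eb1 (0.91), each highest in DCs, and H2-DMb1 and H2-Eb1 serve antigen presentation.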

How the data were processed

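Single cells of pooled abdominal aortas were profiled by 10x Genomics RNA sequencing in 1 library per condition. The authors deposited raw UMI counts per gene and barcode, made with Cell Ranger 8.0.1 per the file headers (the methods name another version), with GRCm39 as the genome in the methods and mm10 in the submitters' processing notes. Coordinates are from GENCODE M39 on GRCm39, which holds 33185 of the 33696 gene IDs. Gene overlaps there may differ from those of the annotation used for counting, and strand settings were not given in the sources used here.

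The cell filter asked for 500 or more UMIs, 200 or more genes and less than 20% of UMIs from mitochondrial genes (11288 of 11448 Control and 24560 of 24804 AngII+HS barcodes passed). The highest Scrublet scores (scanpy 1.11.5) were removed as doublets at 0.8% per 1000 cells, 1019 and 4826 cells. The rest were integrated with Seurat 5.3.0 anchors (2000 variable genes, 30 components) and clustered at a Louvain resolution of 0.8. Clusters were named by marker lists, and lymphoid and myeloid cells were clustered again. A cluster stayed unnamed when fewer than 3 markers of its best list were detected, when its 10 leading genes held a marker of another class and no more of its own, or when its median depth times 3 was under its library's and no marker of its own was among them. A subcluster also stayed unnamed if its best list led the next by under 0.5 (mean log2) or, with no own marker among the 10, had a mean under 2. The naming rule was settled after clusters had been seen. Members and lists were chosen with earlier results of these data known.

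UMIs were summed per class and library and divided by all UMIs of those cells (CPM). Poisson, Clopper-Pearson and conditional binomial intervals (95%, scipy 1.17.1) were used, and no test was run, since each condition is 1 library. Ratios were formed for classes with at least 50 cells in both libraries and for single clusters with at least 40. A gene counted as past 2-fold by its ratio, with at least 20 UMIs in the class. For shares of cells, each cell was thinned to 1000 UMIs. Besides the members, the text names pathway genes past 2-fold, genes of B and plasma cell fate and partners of the ligands and receptors, and the 3 genes most like each member among those with at least 20 CPM in a class. The alternatives were other doublet removal, a stricter filter (1000 UMIs, 500 genes, 10%), no integration, resolutions of 0.4 and 1.2, members kept for clustering, scaling without mitochondrial UMIs or by TMM (edgeR 4.0.16), equal weight per cell, subtraction of a reference class, 500 UMIs for thinning and 50 UMIs per gene. The ratio and interval steps were tested on simulated counts. The barcode lists were used only to count their lines and shared sequences.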

Additional observations from a re-analysis of the deposited data

Results flagged for a closer look

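Some members had a lower level in 1 class of the AngII+HS library and a higher level in another, with counting intervals that left out 0 on both sides. The difference between the classes was not tested, since each condition is 1 library. APRIL (Tnfsf13) had a log2 ratio of -0.83 (-1.18 to -0.49) in VECs against 0.43 in macrophages and 0.38 in fibroblasts. Cd40 had -1.01 (-1.66 to -0.32) in B cells and -0.87 (-1.51 to -0.22) in fibroblasts, against 0.36 in macrophages. The share of B cells with a Cd40 UMI after thinning did not differ between the libraries as the CPM does. Macrophage clusters were not uniform, with 0.71 (0.42 to 1.001) in the Mrc1-led and -0.20 (-0.86 to 0.55) in the Arg1-led cells. The fibroblast Cd40 levels were only 3.56 and 1.95 CPM, and T cells, the reference class, had 3.18 and 2.44 CPM. BAFF (Tnfsf13b) had -1.47 (-2.6 to -0.09) in neutrophils, from 7 Control UMIs, against 1.56 in fibroblasts, 2.35 in pericytes, from 4 Control UMIs, and 1.67 (0.08 to 3.69) in VECs, whose levels of 0.928 and 2.95 CPM lay below the 3.65 CPM of AngII+HS B cells, the reference class. Ltb had -0.22 (-0.43 to -0.01) in neutrophils against 0.81 in T cells and 0.56 in B cells. Its ratio was also above 0 in DCs (2.71, 0.20 to 8.02), from 1 Control UMI in 56 cells, and in fibroblasts (2.40), VSMCs (6.57) and VECs (3.26), from 7, 2 and 3 Control UMIs, low levels from which no change of those cells is read.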

How the results depend on the processing

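No paired analysis was possible because each condition is 1 library and no replicate can be left out. Among 135 alternative values of 17 shares of a gene's UMIs, 91 were counted as unchanged and 44 as moved. For 36 shares of cells with a member's UMI, 11 of 72 alternative values were counted as unchanged and 61 as moved. Of 271 alternative values of 27 log2 ratios, 263 kept their direction and 250 lay within the counting interval. Of the values that turned, those with a setting of the whole data were Cd40 in DCs (0.21 with TMM, 0.25 with equal weight per cell), Ltbr in macrophages (0.24 and 0.16), Tnfrsf13b in B cells (-0.03 with equal weight), Tnfrsf13b in macrophages (-0.10 at resolution 1.2) and Cd40 in VECs (0.44 without doublet removal), whose main intervals all hold 0. TMM moved every ratio of a class by a fixed amount, the most in DCs (0.36), macrophages (0.30) and fibroblasts (0.20), which put Tnfsf13b in fibroblasts at 1.76 and Cd40 in macrophages at 0.66. With equal weight per cell the sums over all cells gave log2 ratios of 1.5 for Tnfsf13b, 0.57 for Tnfsf13, 3.02 for Tnfrsf13b, 1.28 for Tnfrsf13c, 2.33 for Tnfrsf17, 4.09 for Ltb, 0.17 for Ltbr and 2.12 for Cd40. Without doublet removal Tnfrsf17 over all cells stood at 2.65 and Tnfsf13b in fibroblasts at 1.35, and with doubled removal Tnfsf13b over all cells stood at 2.45 and Ltbr in VSMCs at 0.69. Without integration Tnfsf13b in neutrophils stood at -3.28 and Ltb there at -0.71, with 242 AngII+HS cells then named neutrophils against 4646. Single clusters, chosen after seeing the data, gave 1.03 and -1.72 for Cd40 in VECs, 1.17 for Ltbr in Comp-led fibroblasts and 0.71 for Cd40 in Mrc1-led macrophages. Arg1-led macrophages, which are outside these counts, had -0.20 (-0.86 to 0.55) for Cd40.

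The count of genes past 2-fold fell by over 1.5 times with at least 50 UMIs in place of 20 for genes higher in B cells (871 and 399), T cells (902 and 459) and neutrophils (2754 and 1706), and for genes lower in B cells (427 and 137), T cells (388 and 153), neutrophils (1233 and 807), fibroblasts (1319 and 813) and macrophages (2411 and 1547), where fewer genes were tested. No cluster was named plasma cell with doubled doublet removal. Counting error limits the ratios in Control B cells, DCs and neutrophils most, with 100, 56 and 98 cells.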
